A study of Mus musculus with 9 samples.

Results

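The genes described here encode the phase II conjugation enzymes of mouse liver. They were taken from the deposited count table as the protein-coding genes named as UDP-glucuronosyltransferases of families 1 to 3 (UGTs), as sulfotransferases of families 1 to 5 (SULTs) or as glutathione S-transferases of the alpha, kappa, mu, omega, pi, theta or zeta class (GSTs). The rule gave 60 genes of the 56748 in the table, namely 18 UGTs, 19 SULTs and 23 GSTs. Both groups were male C57BL/6J mice that ate a high-fat diet for 20 weeks from 8 weeks of age and were 28 weeks old. The formoterol group (n = 5) received formoterol, a long-acting beta2-adrenergic agonist, by daily intraperitoneal injection at 1 mg/kg in the last 4 weeks of the diet, and the vehicle group (n = 4) received DMSO in the same way. No group without the diet was used here, so each difference is between treatments on that diet. Poly(A) RNA of bulk liver was sequenced, with 1 library for each sample and between 12336665 and 20339665 counts per library. The formoterol libraries carry the codes M46, M47, M48, M49 and M50 and the vehicle libraries the codes M56, M58, M59 and M60, and values of single libraries are given in that order throughout. The group of a library was read from the suffix of its column name and the group sizes, so every direction rests on that reading.

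Phase II enzymes couple a polar group to drugs, hormones, bile acids and bilirubin, which makes these molecules easier to excrete in bile and urine. UGTs sit in the endoplasmic reticulum and transfer glucuronic acid from UDP-glucuronic acid. SULTs are cytosolic and transfer a sulfate group from the donor 3'-phosphoadenosine 5'-phosphosulfate (PAPS). The soluble GSTs couple glutathione to electrophiles such as reactive drug metabolites and lipid aldehydes. Hepatocytes hold most of these enzymes in liver, and several mouse SULTs and GSTs are known to differ between the sexes under the control of growth hormone.

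The stretches before the annotated transcription start are shown for 4 members from all 3 families, whose levels are described below in opposite directions between the groups. Each is the 250 bases upstream of a start site in RefSeq on GRCm38.p6, written 5' to 3' in the sense of the gene. Capitals mark matches, on either strand, to the 3 motifs searched, which were TGACNNNGC (the core of the antioxidant response element), GCGTG (the core of the xenobiotic response element, CACGC on the other strand) and AGTTCA (a half-site of the nuclear receptors PXR and CAR). The Sult1d1 window lies at chr5:87569007-87569256 on the minus strand, that of Gstm1 at chr3:108017819-108018068 on the minus strand, that of Gstm3 at chr3:107969175-107969424 on the minus strand and that of Ugt1a1 at chr1:88211709-88211958 on the plus strand.
Sult1d1: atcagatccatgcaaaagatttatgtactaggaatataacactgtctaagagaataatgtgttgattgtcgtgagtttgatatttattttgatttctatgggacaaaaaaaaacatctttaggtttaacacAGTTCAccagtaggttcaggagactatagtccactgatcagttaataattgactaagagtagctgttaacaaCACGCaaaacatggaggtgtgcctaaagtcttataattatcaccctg
Gstm1: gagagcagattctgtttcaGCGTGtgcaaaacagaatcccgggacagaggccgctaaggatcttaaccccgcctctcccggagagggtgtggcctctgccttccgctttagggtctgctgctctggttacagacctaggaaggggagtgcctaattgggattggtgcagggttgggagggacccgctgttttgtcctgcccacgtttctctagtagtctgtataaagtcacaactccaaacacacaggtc
Gstm3: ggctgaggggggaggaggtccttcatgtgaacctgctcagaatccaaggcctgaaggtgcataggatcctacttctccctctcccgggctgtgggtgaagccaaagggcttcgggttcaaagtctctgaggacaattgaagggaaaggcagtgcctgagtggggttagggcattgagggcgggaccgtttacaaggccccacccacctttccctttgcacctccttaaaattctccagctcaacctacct
Ugt1a1: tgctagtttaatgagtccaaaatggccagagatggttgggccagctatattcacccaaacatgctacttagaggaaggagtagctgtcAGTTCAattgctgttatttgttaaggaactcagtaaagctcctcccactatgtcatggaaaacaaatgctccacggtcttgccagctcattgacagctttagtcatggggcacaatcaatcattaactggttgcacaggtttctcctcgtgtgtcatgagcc
The Sult1d1 window held AGTTCA beginning 119 bases and CACGC beginning 47 bases before the start, the Gstm1 window held GCGTG 231 bases before it, and the Ugt1a1 window held AGTTCA 162 bases before it. The Gstm3 window held none of the 3 motifs.

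RefSeq windows of 250 bases before to 50 bases after a start were found for 52 of the 60 members, 37 of them among the members tested below. TGACNNNGC was present in 3 of the 37, all GSTs, against 12.4% of the 32851 windows in the RefSeq table. GCGTG was present in 9 of the 37 against 32.4% of all windows, and AGTTCA in 7 of the 37 against 14.0%. Members with more than 1 annotated start were counted once if any of their windows matched. These matches describe letters in the sequence and not sites of binding.

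Group means of single conjugation genes lay in both directions, and none passed the edgeR test with all 9 libraries. Sult2a8 and Sult1d1, the most abundant sulfotransferase transcripts, averaged 2.12 and 2.35 times as much in formoterol as in vehicle livers. Gstm1, the most abundant GST transcript among the members, averaged 0.607 times as much, and Gstm3 and the Ugt1a genes were also lower in most formoterol livers. The abundant Ugt2b genes differed by less than the spread between libraries. Of the 60 members, 8 had no count in any library and 41 had enough counts to be tested (13 UGTs, 8 SULTs and 20 GSTs). Levels are CPM, counts scaled to a common library size with TMM factors, and a log2 fold change is formoterol minus vehicle from edgeR's quasi-likelihood fit over all 13042 genes tested. With all 9 libraries edgeR called 0 of the 41 members in either direction at an adjusted p under 0.05, as it called 0 of the 13042 genes (0%). The smallest edgeR adjusted p of a member was 0.159. At an unadjusted p under 0.05, 6 of the 41 members were higher in formoterol livers (14.6%) against 9.03% of all genes tested, and 8 were lower (19.5%) against 5.53%. The groups did not overlap for 0 members in the higher direction, against 2.45% of all genes, and for 4 in the lower direction (9.76%), against 2.38%. The median log2 fold change was 0.19 over the 41 members and −0.01 over all genes tested, and 26 of the 41 were positive against 48.7% of all genes. Scaling by library totals alone moved the median of all genes to −0.16 and gave 2 members higher and 10 lower with unadjusted p under 0.05, against 3.58% and 9.91% of all genes.

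DESeq2 called 1 member higher (Sult2a8) against 1.96% of the 11264 genes to which it gave an adjusted p, and 2 lower (Ugt1a9 and Gstm1) against 0.826%. Single formoterol libraries differed in where they lay. Of the 41 members, M49 gave the lowest formoterol value for 18 and the highest for 11, M50 the lowest for 9 and the highest for 0, and M48 the lowest for 4 and the highest for 20. M49 lay inside the vehicle range for 20 members and M50 for 19, against 11 for M46, 13 for M47 and 9 for M48. Without M49, edgeR called 3 members higher (Sult2a8, Gstp1 and Sult5a1) against 3.47% of 12736 genes, and 5 lower (Gstm3, Gstm1, Ugt1a9, Ugt1a1 and Ugt1a5) against 2.04%. M49 stood apart on values of these same members, so calls without it, here and below, are not independent support for a difference. Limma-voom with sample quality weights called 5 higher and 7 lower, against 6.07% and 4.46% of all genes, and limma-voom without weights called 0. The weight of M47 was 3.51, against 0.369 to 0.665 for the other formoterol libraries, so the weighted calls lean most on M47 in that group.

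Markers of other cells and the state of the libraries were measured beside these values. The summed level of 9 hepatocyte markers was 99033 to 140010 CPM in the formoterol livers and 82668 to 96887 CPM in the vehicle livers, without overlap, and M49 had the lowest formoterol sum. Of these 9 markers, 7 had positive and 2 negative log2 fold changes. At an unadjusted p under 0.05, 5 were higher and 0 lower, against 9.03% and 5.53% of all genes. Only 1 was itself higher without overlap, against 2.45% of all genes. The 8 stellate cell and fibroblast markers summed to 73.1 to 355 CPM in formoterol livers, with M49 highest, and to 223 to 387 CPM in vehicle livers. The 7 endothelial markers summed to 28.9 to 96.4 CPM in formoterol livers and to at least 77.0 CPM in every vehicle liver. The 7 Kupffer cell markers summed to 44.7 to 94.1 CPM in formoterol livers and 49.3 to 94.1 CPM in vehicle livers, and the 7 markers of monocyte-derived macrophages to 22.1 to 63.0 CPM in formoterol livers and 47.3 to 88.9 CPM in vehicle livers. The 8 cholangiocyte markers summed to 71.1 to 259 CPM in formoterol livers, with M49 highest, and 82.2 to 196 CPM in vehicle livers. T and NK cell markers reached at most 2.05 CPM in formoterol and 1.46 CPM in vehicle livers, and B cell markers at most 8.38 CPM in formoterol and 9.03 CPM in vehicle livers. The 4 adipocyte markers summed to 35.9 to 115 CPM in formoterol livers and 14.8 to 31.6 CPM in vehicle livers, with the droplet coat gene Plin1 at 0 in all 9 libraries. Only 2 of the 4 were tested, with log2 fold changes of 2.68 and −0.12, so the sum does not show a change shared by these markers. Mitochondrially encoded genes took 16.4 to 38.6% of the counts in formoterol livers and 23.4 to 34.0% in vehicle livers. The part of these differences in the results below was not tested, and in bulk liver fewer cells of a type and less RNA per cell cannot be told apart.

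**Figure D1:**
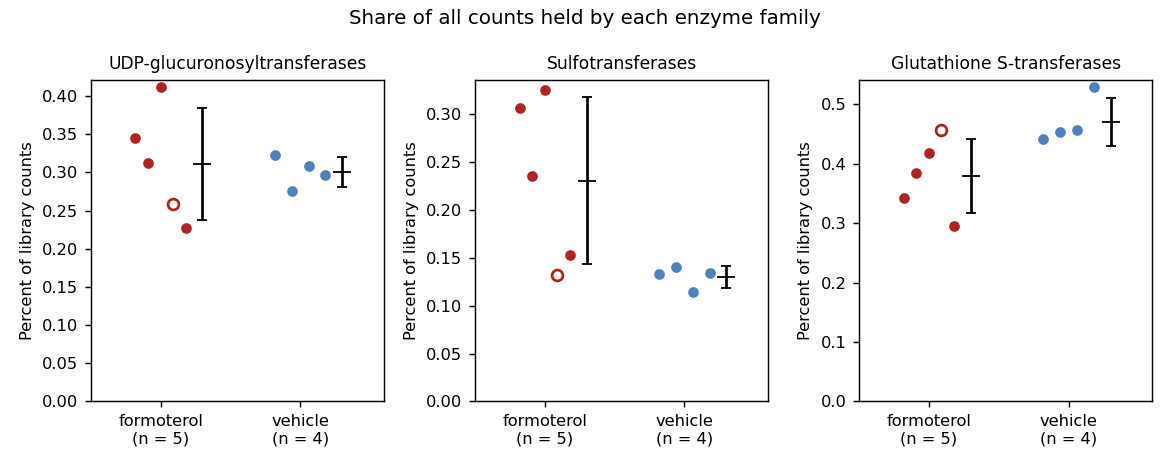
Percent of all counts in each library held by the members of each enzyme family, one panel per family with its own axis from 0. Red points are the 5 formoterol libraries (open circle, M49), blue points the 4 vehicle libraries, and black bars the mean ± SD. Sulfotransferases reach 0.325% in formoterol libraries and at most 0.140% in vehicle libraries, while M49 sits at 0.132%, inside the vehicle range.

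Together the members held 0.921 ± 0.177% of the counts in formoterol libraries and 0.902 ± 0.0410% in vehicle libraries (SD, n = 5 and n = 4, here and below for all means of the groups). The families differed in how this share was divided. SULTs held 0.306, 0.236, 0.325, 0.132 and 0.153% of the counts in the formoterol libraries, against 0.133, 0.140, 0.114 and 0.134% in the vehicle libraries. All formoterol libraries but M49 exceeded the vehicle range. GSTs held 0.342, 0.385, 0.418, 0.457 and 0.296% in formoterol libraries, against 0.441, 0.454, 0.458 and 0.530% in vehicle libraries. For GSTs all formoterol libraries but M49 lay below the vehicle range. Gstm1 alone held 28.3 ± 7.11% of the GST counts in formoterol libraries and 41.6 ± 2.18% in vehicle libraries. Of the 20 tested GSTs, 12 had positive log2 fold changes, against 48.7% of all genes, so the lower share does not describe most GSTs. UGTs held 0.311 ± 0.0729% in formoterol libraries and 0.301 ± 0.0196% in vehicle libraries, with overlap on both sides. As a share of counts from nuclear genes, GSTs held 0.501 ± 0.0720% in formoterol and 0.662 ± 0.0352% in vehicle libraries, and there M49 at 0.610% also lay below the lowest vehicle library at 0.616%. On that base SULTs held 0.299 ± 0.0891% in formoterol and 0.184 ± 0.0213% in vehicle libraries, and UGTs 0.406 ± 0.0605% in formoterol and 0.424 ± 0.0276% in vehicle libraries, so the order of the UGT means turned. No test was made of these shares.

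The glucuronosyltransferases divided by gene class. All 3 tested members of the Ugt1a class had lower values in formoterol livers at an unadjusted p under 0.05, and both tested Ugt3a members had negative log2 fold changes, 1 of them at that threshold. All 7 Ugt2b members had positive log2 fold changes, from 0.20 to 0.68, and none of them had an unadjusted p under 0.05. Over the 13 tested UGTs this came to 1 higher and 4 lower at that threshold, against 9.03% and 5.53% of all genes, and a median log2 fold change of 0.22. The sign of each Ugt2b member was the same with library totals and after the correction for gene length. With library totals the values were smaller, at 0.05 for Ugt2b5, 0.14 for Ugt2b36, 0.04 for Ugt2b34, 0.07 for Ugt2b1 and 0.08 for Ugt2b35. The median of all genes was −0.16 in that setting. Ugt2b38 was at −0.14 with limma-voom and reached −0.09 when 1 library was left out.

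Ugt1a1, the enzyme that conjugates bilirubin, had 13.3, 20.9, 11.9, 27.7 and 16.9 CPM in the formoterol livers, against 32.1, 26.7, 29.8 and 25.9 CPM in the vehicle livers. M46, M47, M48 and M50 lay below every vehicle library and M49 lay among them. Means were 18.1 ± 6.41 CPM in formoterol and 28.6 ± 2.86 CPM in vehicle livers, a log2 fold change of −0.65 (SE 0.22, adjusted p = 0.212 by edgeR). Without M49 the log2 fold change was −0.87 (SE 0.19, adjusted p = 0.0180 by edgeR). Ugt1a1 (ENSMUSG00000089960) spans chromosome 1, 88139681 to 88146719 on mm39, where the Ugt1a genes share their last exons.

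Ugt1a9, whose human counterpart conjugates phenolic drugs such as propofol, was scarce. It had 0.163, 0.0709, 0.389, 1.75 and 1.06 CPM in formoterol livers, against 4.14, 4.20, 6.88 and 1.90 CPM in vehicle livers. Every formoterol library lay below every vehicle library, although M49 was close to the lowest vehicle library, M60. The log2 fold change was −2.56 (SE 0.63), with an edgeR adjusted p of 0.159, a DESeq2 adjusted p of 0.00680, and an edgeR adjusted p of 0.0109 without M49. Ugt1a5 had 1.06, 2.76, 1.04, 6.77 and 3.88 CPM in formoterol livers, against 10.6, 3.13, 7.71 and 6.70 CPM in vehicle livers. M58 was low among the vehicle libraries and M49 was high among the formoterol libraries, so the groups overlapped (log2 fold change −1.16, SE 0.51, adjusted p = 0.320 by edgeR, and 0.0473 without M49).

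The Ugt1a values are uncertain gene by gene, because 57.2% of the 100-base stretches in Ugt1a1 transcripts, 58.5% in Ugt1a9 and 63.1% in Ugt1a5 also occur in another gene in GENCODE M21. The genes overlap on the same strand, so reads from the shared exons cannot be assigned to 1 of them. Taken as a class, the members of the rule held 0.390, 0.735, 0.306, 1.59 and 0.807% of the UGT counts in formoterol libraries, against 1.63, 1.22, 1.51 and 1.29% in vehicle libraries. The same 4 formoterol libraries lay below the vehicle range, with M49 inside it. Ugt1a6a and Ugt1a6b, genes of the locus that the naming rule leaves out, had log2 fold changes of −0.39 (SE 0.24) and −0.81 (SE 0.38), with edgeR adjusted p of 0.487 and 0.342.

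Ugt3a1, which in humans uses UDP-N-acetylglucosamine as its donor, was the other UGT without overlap. It had 24.2, 22.1, 26.5, 18.3 and 23.8 CPM in formoterol livers, against 31.0, 26.7, 33.7 and 34.5 CPM in vehicle livers (log2 fold change −0.46, SE 0.15, adjusted p = 0.200 by edgeR). M49 was the lowest library here, and M48 and M58 nearly met. Its neighbour on chromosome 15, Ugt3a2, ranged from 146 to 212 CPM in formoterol livers and from 197 to 229 CPM in vehicle livers, with a log2 fold change of −0.21 (SE 0.15).

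The Ugt2b genes and Ugt2a3, which glucuronidate steroids, bile acids and drugs, lie in a cluster on chromosome 5 and supplied most UGT transcripts. The Ugt2b class held 84.0 ± 1.54% of UGT counts in formoterol libraries and 82.2 ± 0.641% in vehicle libraries. Per kilobase of gene length, Ugt2b5 had the highest level of the UGTs, at 507 ± 152 CPM per kb in formoterol and 434 ± 22.4 CPM per kb in vehicle livers. Ugt2b36 came next, at 416 ± 140 CPM per kb in formoterol and 336 ± 20.3 CPM per kb in vehicle livers, within the spread of Ugt2b5 in formoterol livers. Ugt2a3, Ugt2b34 and Ugt2b1 followed at 113 to 136 CPM per kb in formoterol livers and 95.5 to 104 CPM per kb in vehicle livers, and did not differ from each other beyond their spread.

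Ugt2b5 had 1003, 902, 1377, 605 and 828 CPM in formoterol livers, against 800, 810, 860 and 759 CPM in vehicle livers. Ugt2b36 had 1019, 804, 1266, 581 and 614 CPM in formoterol livers, against 631, 711, 698 and 726 CPM in vehicle livers. For both, M46, M47 and M48 exceeded the vehicle range and M49 lay below it, as did M50 for Ugt2b36, so the spread among formoterol libraries was wider than the difference between the groups (log2 fold changes 0.22, SE 0.20, and 0.31, SE 0.22). Ugt2b34 had 685, 476, 579, 397 and 419 CPM in formoterol livers, against 504, 445, 468 and 359 CPM in vehicle livers (log2 fold change 0.20, SE 0.18). Ugt2b1 had 243, 336, 395, 212 and 262 CPM in formoterol livers, against 297, 218, 259 and 209 CPM in vehicle livers (log2 fold change 0.24, SE 0.19). M48 was high in each of these genes or next to the highest. Counts of Ugt2b5 are uncertain to the extent that 24.7% of its 100-base stretches also occur in Ugt2b38.

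Ugt2a3 was the UGT that was higher at an unadjusted p under 0.05. It had 314, 298, 375, 207 and 246 CPM in formoterol livers, against 206, 220, 217 and 236 CPM in vehicle livers. All formoterol libraries but M49 exceeded the vehicle range, and the log2 fold change was 0.39 (SE 0.17, adjusted p = 0.312 by edgeR, and 0.0744 without M49). The unadjusted edgeR p of Ugt2a3 was 0.0789 after the correction for gene length and 0.213 with library totals. Ugt2b37 was near the limit of detection, with 0.814, 1.91, 3.50, 2.63 and 1.18 CPM in formoterol livers, against 1.40, 1.81, 1.17 and 0.792 CPM in vehicle livers. Ugt2b35 ranged from 96.6 to 207 CPM in formoterol livers and from 125 to 148 CPM in vehicle livers, and Ugt2b38 from 0.0487 to 6.81 CPM in formoterol livers and from 0.329 to 3.79 CPM in vehicle livers. The UGTs that were not tested were Ugt1a10 with 18 counts and Ugt1a2 with 2 counts over the 9 libraries, and Ugt1a8, Ugt2a1 and Ugt2a2 with none.

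**Figure D2:**
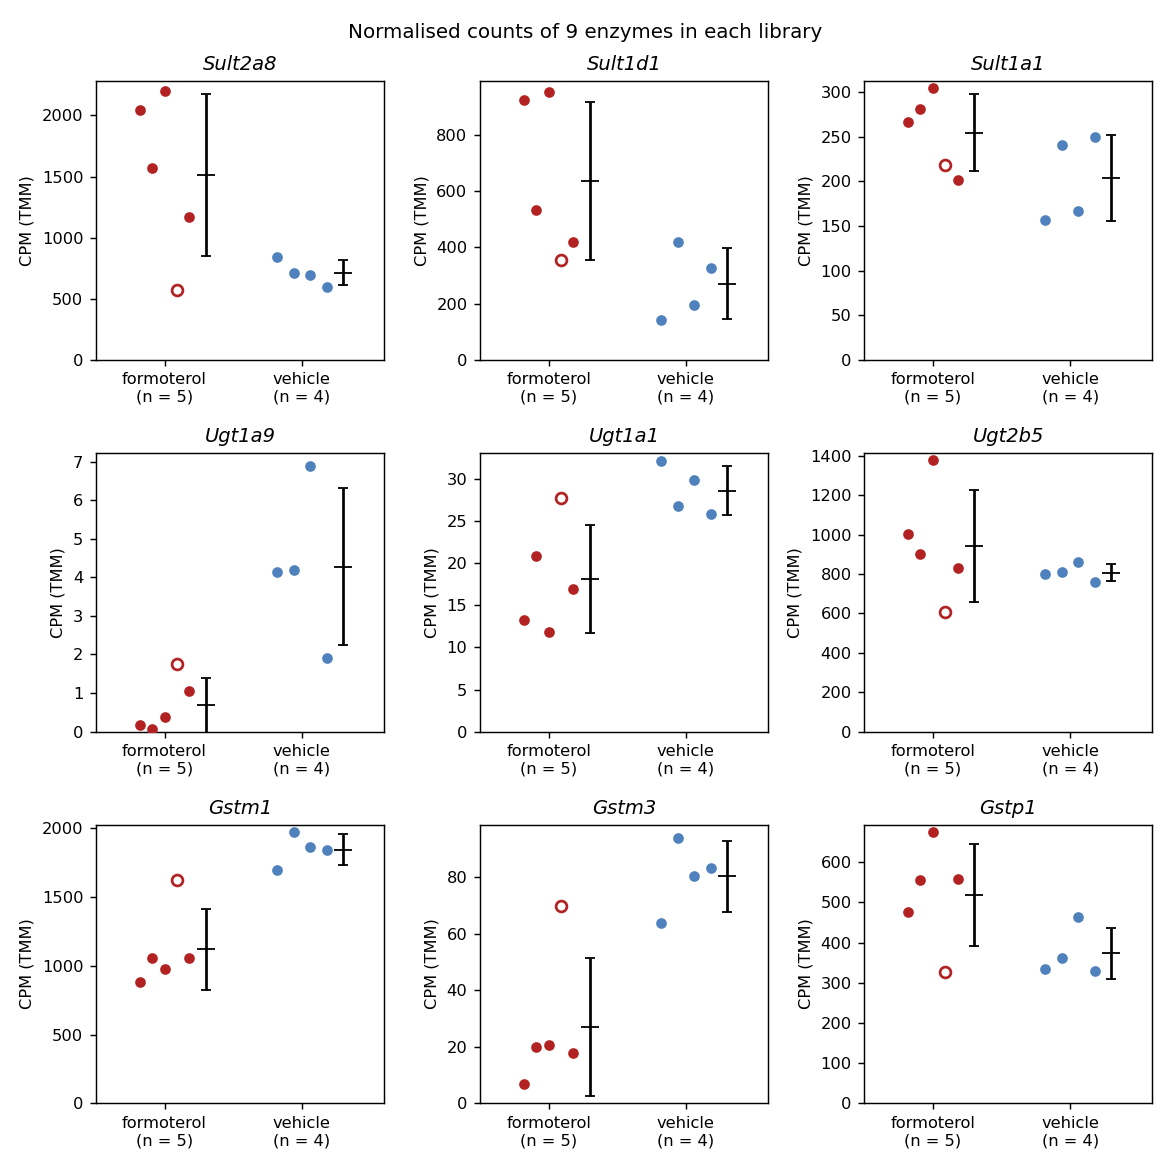
TMM-normalised CPM of 9 enzymes in each library, each panel with its own axis from 0. Red points are the 5 formoterol libraries (open circle, M49), blue points the 4 vehicle libraries, and black bars the mean ± SD. For Sult2a8, Ugt1a1, Gstm1 and Gstm3 the open circle lies at or near the vehicle points, apart from the other 4 formoterol libraries; the lower bar of Ugt1a9 ends at the axis because the SD exceeds the mean.

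The sulfotransferases were dominated by Sult2a8 and Sult1d1, and both had higher values in formoterol livers. At an unadjusted p under 0.05, 2 of the 8 tested SULTs were higher and 0 lower, against 9.03% and 5.53% of all genes, and 6 of the 8 had positive log2 fold changes, against 48.7%. The median log2 fold change of the 8 was 0.44. The filter on low counts chose these 8, and the median did not hold when SULTs with few counts entered it, as given at the end. Sult2a8 and Sult1d1 together supplied 86.4 ± 4.42% of SULT counts in formoterol libraries and 80.0 ± 3.04% in vehicle libraries.

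Sult2a8 (ENSMUSG00000030378; chromosome 7, 14144611 to 14180694 on mm39) encodes a liver sulfotransferase that sulfates bile acids in the mouse. It had 2045, 1568, 2201, 575 and 1173 CPM in formoterol livers, against 845, 715, 691 and 595 CPM in vehicle livers. M46, M47, M48 and M50 exceeded every vehicle library, and M49 lay below them all. Means were 1512 ± 662 CPM in formoterol and 712 ± 103 CPM in vehicle livers, a ratio of 2.12 and a log2 fold change of 1.09 (SE 0.31). The edgeR adjusted p was 0.179, and DESeq2 called Sult2a8 higher (adjusted p = 0.0204). Without M49 Sult2a8 had a log2 fold change of 1.29 (SE 0.20, adjusted p = 0.00308 by edgeR). None of its 100-base stretches occurs in another annotated gene.

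Sult1d1 (ENSMUSG00000029273; chromosome 5, 87702504 to 87716886 on mm39) encodes the mouse enzyme that sulfates dopamine and other catecholamines. It had 924, 535, 952, 355 and 418 CPM in formoterol livers, against 141, 421, 197 and 326 CPM in vehicle livers. M46, M47 and M48 exceeded the vehicle range, and M49 and M50 lay inside it. Means were 637 ± 282 CPM in formoterol and 271 ± 126 CPM in vehicle livers, with a log2 fold change of 1.23 (SE 0.38, adjusted p = 0.198 by edgeR and 0.0955 by DESeq2, and adjusted p = 0.0620 by edgeR without M49). The vehicle libraries themselves differed, with M56 and M59 low.

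Per kilobase, Sult2a8 had the highest level of the family, at 461 ± 202 CPM per kb in formoterol and 217 ± 31.4 CPM per kb in vehicle livers. Sult1d1 had 259 ± 115 CPM per kb in formoterol livers and 110 ± 51.4 CPM per kb in vehicle livers, and Sult1a1 had 169 ± 28.7 CPM per kb in formoterol livers and 135 ± 32.2 CPM per kb in vehicle livers. Sult1d1 and Sult1a1 did not differ beyond their spread in either group. All other SULTs were at 10.5 CPM per kb or less.

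Sult1a1, the phenol sulfotransferase, had 266, 281, 305, 219 and 202 CPM in formoterol livers, against 157, 241, 167 and 250 CPM in vehicle livers (log2 fold change 0.32, SE 0.19, adjusted p = 0.447 by edgeR). The groups overlapped, with M56 and M59 again low among the vehicle libraries. Sult1b1, which sulfates thyroid hormones, had 37.3, 34.0, 32.7, 18.2 and 23.4 CPM in formoterol livers, against 23.8, 30.9, 22.9 and 24.3 CPM in vehicle livers (log2 fold change 0.19, SE 0.20). Sult1c2 had 8.87, 7.66, 7.72, 6.04 and 5.12 CPM in formoterol livers, against 9.78, 8.39, 9.72 and 9.87 CPM in vehicle livers (log2 fold change −0.42, SE 0.20). Sult1c2 thus went the other way, with 4 of 5 formoterol libraries below the vehicle range.

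The remaining tested SULTs were of low abundance. Sult5a1 had 10.1, 6.88, 11.7, 1.46 and 10.1 CPM in formoterol livers, against 6.76, 5.35, 5.66 and 4.07 CPM in vehicle livers. The 4 formoterol libraries other than M49 exceeded the vehicle range and M49 was the lowest of all 9, and the log2 fold change was 0.55 (SE 0.43, adjusted p = 0.597 by edgeR), or 0.83 (SE 0.23, adjusted p = 0.0483) without M49. Sult1e1, the estrogen sulfotransferase, had 2.03, 0.638, 1.23, 0.195 and 0.588 CPM in formoterol livers, against 1.46, 1.65, 0.439 and 0.792 CPM in vehicle livers, and its log2 fold change of −0.22 (SE 0.64) changed sign when M49 or M58 was left out. Sult2a7 ranged from 0.765 to 3.76 CPM in formoterol and from 0.684 to 2.32 CPM in vehicle livers. The SULTs not tested were Sult3a1 with 30 counts in all, Sult2a2 with 9, Sult4a1 and Sult2b1 with 5 each, Sult2a5 with 2, Sult2a1 with 1, and Sult1c1, Sult2a3, Sult2a4, Sult2a6 and Sult3a2 with none. Sult2a1 and Sult3a1 are known as genes of female mouse liver, and all libraries here came from males.

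Among the glutathione S-transferases 4 genes of the mu class had lower values in formoterol livers. Gstp1 of the pi class and Gstt1 and Gstt2 of the theta class had higher values. Of the 20 tested GSTs, 4 were lower with unadjusted p under 0.05, all of the mu class (Gstm1, Gstm2, Gstm3 and Gstm4), and 3 were higher (Gstp1, Gstt1 and Gstt2), against 5.53% lower and 9.03% higher of all genes. The other 3 mu members, Gstm5, Gstm6 and Gstm7, had log2 fold changes from 0.05 to 0.27, and those of Gstm6 and Gstm7 turned negative with library totals or after the correction for gene length. The family's median log2 fold change was 0.05, and it was −0.10 with library totals and −0.05 after the correction for gene length. The mu class held 34.8 ± 7.92% of GST counts in formoterol libraries and 49.6 ± 1.76% in vehicle libraries, with M49 at 47.7%.

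Gstm1 (ENSMUSG00000058135; chromosome 3, 107919571 to 107925289 on mm39), the most abundant GST transcript among the members, had 881, 1055, 974, 1622 and 1055 CPM in formoterol livers, against 1696, 1966, 1863 and 1836 CPM in vehicle livers. Every formoterol library lay below every vehicle library, with M49 close to the lowest of them and the other 4 far below. Means were 1117 ± 291 CPM in formoterol and 1840 ± 111 CPM in vehicle livers, a ratio of 0.607 and a log2 fold change of −0.72 (SE 0.18). The edgeR adjusted p was 0.159, and DESeq2 called Gstm1 lower (adjusted p = 0.0110). Without M49 Gstm1 had a log2 fold change of −0.90 (SE 0.14, adjusted p = 0.00391 by edgeR). Of its 100-base stretches 5.86% occur in another gene, mostly the pseudogene Gstm2-ps1.

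Gstm3 had 7.00, 19.9, 20.6, 69.7 and 17.9 CPM in formoterol livers, against 63.7, 93.9, 80.5 and 83.1 CPM in vehicle livers. M49 lay inside the vehicle range and the other 4 were all below it, at no more than 20.6 CPM. The log2 fold change was −1.56 (SE 0.56, adjusted p = 0.259 by edgeR) with all libraries and −2.29 (SE 0.28, adjusted p = 0.00163) without M49. Of the 100-base stretches of Gstm3, 13.8% occur in another gene, so its counts are less certain than those of Gstm4 and Gstm2.

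Gstm4 had 22.8, 28.7, 20.8, 26.1 and 23.1 CPM in formoterol livers, against 33.7, 29.1, 42.1 and 35.1 CPM in vehicle livers. The groups did not overlap, although M47 and M58 nearly met, and here M49 was not apart from the other formoterol libraries (log2 fold change −0.53, SE 0.15, adjusted p = 0.173 by edgeR). Gstm2 had 72.7, 67.9, 86.1, 96.8 and 65.6 CPM in formoterol livers, against 77.1, 154, 84.3 and 167 CPM in vehicle livers (log2 fold change −0.63, SE 0.23, adjusted p = 0.226 by edgeR). For Gstm2 the vehicle libraries were split, with M58 and M60 high and M56 and M59 inside the formoterol range. The 7 mu genes lie together on chromosome 3, between 107803137 (Gstm5) and 107952210 (Gstm4) on mm39. The summed level of 10 pericentral hepatocyte markers was 8814 to 17739 CPM in formoterol livers and 9736 to 11710 CPM in vehicle livers, with M49 lowest. That of 10 periportal markers was 80022 to 114009 CPM in formoterol and 68059 to 80363 CPM in vehicle livers. Alb is in both the periportal and the hepatocyte list. Single markers went both ways. At an unadjusted p under 0.05, 2 pericentral markers were higher and 2 lower, against 9.03% and 5.53% of all genes. Of the periportal markers, 3 were higher and 2 lower at that threshold. The part of these markers in the mu class values was not tested.

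The GSTs that were higher at an unadjusted p under 0.05 were in the pi and theta classes. Gstp1, the main pi-class enzyme of mouse liver, had 476, 556, 675, 328 and 557 CPM in formoterol livers, against 335, 363, 465 and 330 CPM in vehicle livers. All formoterol libraries but M49 exceeded the vehicle range, and the log2 fold change was 0.48 (SE 0.20, adjusted p = 0.289 by edgeR), or 0.60 (SE 0.16, adjusted p = 0.0467) without M49. Gstp1 shares 25.1% of its 100-base stretches, mostly with Gstp2, which was measured at 0.163 to 0.975 CPM in formoterol and 0.411 to 0.792 CPM in vehicle livers. Gstp3 ranged from 13.5 to 29.2 CPM in formoterol livers and from 14.0 to 24.9 CPM in vehicle livers (log2 fold change −0.10, SE 0.25).

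Gstt1, a theta-class enzyme that acts on small halogenated compounds, had 365, 359, 418, 287 and 312 CPM in formoterol livers, against 213, 295, 261 and 291 CPM in vehicle livers. M49 alone lay inside the vehicle range (log2 fold change 0.39, SE 0.16, adjusted p = 0.280 by edgeR). Gstt2 had 129, 88.5, 122, 74.3 and 83.1 CPM in formoterol livers, against 31.2, 76.4, 51.1 and 94.6 CPM in vehicle livers. For Gstt2 M46 and M48 exceeded the vehicle range, while M56 was far below the other vehicle libraries (log2 fold change 0.65, SE 0.28, adjusted p = 0.311 by edgeR). Gstt3 had a log2 fold change of 0.18 (SE 0.22). Gstz1, the maleylacetoacetate isomerase of tyrosine breakdown, had 668, 573, 750, 457 and 523 CPM in formoterol livers, against 485, 450, 480 and 517 CPM in vehicle livers (log2 fold change 0.30, SE 0.16). Here too the 4 libraries other than M49 exceeded the vehicle range.

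The alpha class showed no common direction. Gsta3, which detoxifies aflatoxin epoxide in the mouse, had 639, 731, 924, 592 and 519 CPM in formoterol livers, against 657, 724, 668 and 870 CPM in vehicle livers, with a log2 fold change of −0.10 (SE 0.18). M46, M49 and M50 lay below the vehicle range of Gsta3 and M48 lay above it. Gsta1 had 4.15, 1.49, 5.90, 17.6 and 3.53 CPM in formoterol livers, against 4.60, 25.2, 19.3 and 12.5 CPM in vehicle livers (log2 fold change −1.21, SE 0.70, adjusted p = 0.478 by edgeR, and −2.02, SE 0.53, adjusted p = 0.0562 without M49). M49 was high among the formoterol libraries and M56 low among the vehicle libraries. Counts of Gsta1 are the least certain of the tested GSTs, since 80.6% of its 100-base stretches occur in another gene, mostly Gm3776. Gsta2 and Gsta4, which clears the lipid aldehyde 4-hydroxynonenal, had log2 fold changes of −0.08 (SE 0.37) and 0.24 (SE 0.29). In the vehicle group M56 gave the lowest value for 15 of the 20 tested GSTs and M60 the highest for 13.

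Per kilobase, Gstm1 had the highest level of the GST members, at 759 ± 198 CPM per kb in formoterol and 1249 ± 75.5 CPM per kb in vehicle livers. Gstp1 followed at 335 ± 82.7 CPM per kb in formoterol and 241 ± 40.5 CPM per kb in vehicle livers, then Gstt1 at 228 ± 33.3 CPM per kb in formoterol and 174 ± 24.8 CPM per kb in vehicle livers. The spreads of Gstp1 and Gstt1 overlapped in formoterol livers and only just parted in vehicle livers. The mitochondrial and peroxisomal enzyme Gstk1 had 94.9 ± 4.30 CPM per kb in formoterol and 84.9 ± 16.4 CPM per kb in vehicle livers, with a log2 fold change of 0.16 (SE 0.15), and the omega-class enzyme Gsto1 had a log2 fold change of 0.04 (SE 0.17), which was −0.12 with library totals and −0.06 after the correction for gene length. The GSTs not tested were Gsto2 with 5 counts in all, Gstt4 with 2 and Gsta5 with 1.

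**Figure D3:**
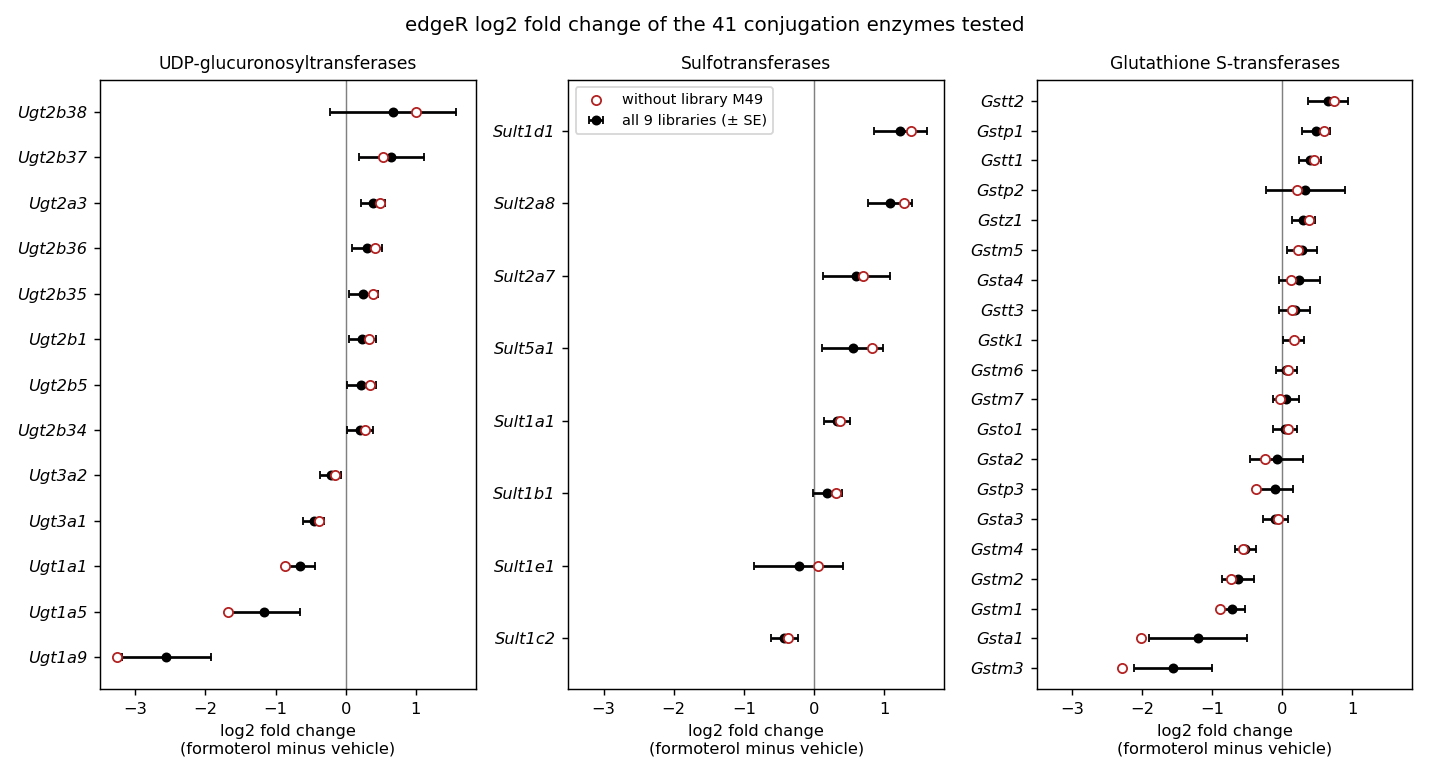
Log2 fold change (formoterol minus vehicle, edgeR) of the 41 tested enzymes, one panel per family, sorted by value. Black points with bars are all 9 libraries ± SE and open red circles the fit without formoterol library M49. The Ugt1a genes and Gstm1 to Gstm4 lie left of 0 and Sult2a8 and Sult1d1 right of it in both fits, and the largest shifts without M49 are to −2.29 for Gstm3, −3.26 for Ugt1a9 and −2.02 for Gsta1.

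Without M49, 6 members were separated from the vehicle libraries in the higher direction (Ugt2a3, Sult2a8, Sult5a1, Gstp1, Gstt1 and Gstz1), against 7.63% of all genes tested, where with it none was. In the lower direction the count was 6, against 6.64% of all genes. At an unadjusted p under 0.05 the fit without M49 gave 10 members higher and 9 lower, against 12.6% and 10.8% of all genes. The tested members were short genes, with a median length of 1894 bp against 4229 bp for all genes tested. After a correction for the trend of counts with gene length, 3 members were higher and 9 lower with unadjusted p under 0.05, against 9.06% and 5.14% of all genes.

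**Figure D4:**
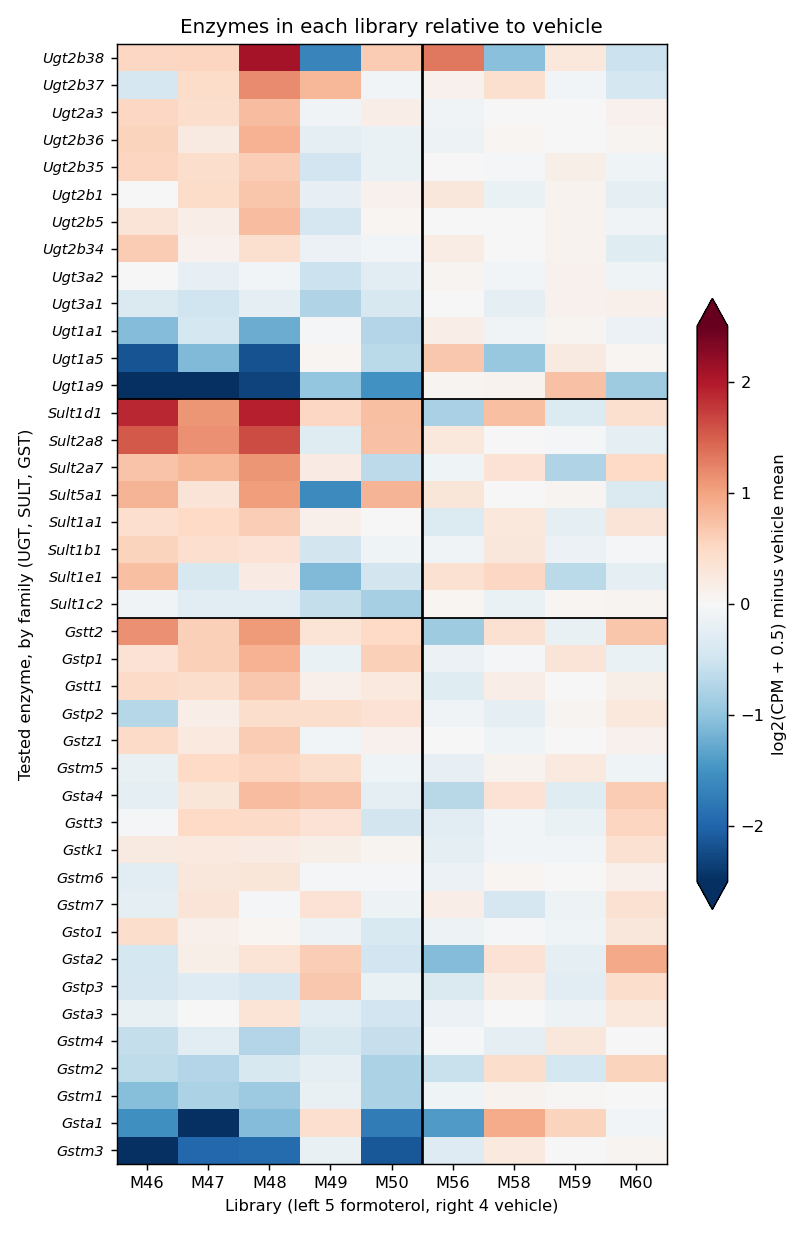
Log2(CPM + 0.5) of the 41 tested enzymes in each library minus the mean of the 4 vehicle libraries, with rows grouped into UGTs, SULTs and GSTs, the 5 formoterol libraries left and the 4 vehicle libraries right of the vertical line. Colours are cut at ± 2.5. The M49 column is near the vehicle columns for Gstm1, Ugt1a1 and Sult2a8, where the other 4 formoterol columns stand apart.

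Genes that supply or handle cofactors of conjugation were compared in the same fit, some of them outside the donors of UGTs, SULTs and GSTs. Of 18 tested genes of cofactor supply, 4 were higher and 1 lower with unadjusted p under 0.05, against 9.03% higher and 5.53% lower of all genes, with a median log2 fold change of 0.06 and 0 calls by edgeR at an adjusted p under 0.05. Ahcy, which hydrolyses S-adenosylhomocysteine, had 1661, 1547, 1780, 939 and 1290 CPM in formoterol livers, against 618, 878, 695 and 1103 CPM in vehicle livers (log2 fold change 0.81, SE 0.22, adjusted p = 0.172 by edgeR and 0.0195 by DESeq2). Slc33a1, a transporter of acetyl-CoA, had 234, 152, 286, 113 and 155 CPM in formoterol livers, against 103, 125, 108 and 98.9 CPM in vehicle livers (log2 fold change 0.79, SE 0.23). Both genes rose by DESeq2, and in both M49 lay in the vehicle range. Neither makes the donor of UGTs, SULTs or GSTs. Papss2, which makes the sulfate donor PAPS, had 134, 211, 161, 171 and 202 CPM in formoterol livers, against 132, 134, 116 and 160 CPM in vehicle livers (log2 fold change 0.38, SE 0.16, adjusted p = 0.310 by edgeR). Gclc, the catalytic subunit of the rate-limiting enzyme of glutathione synthesis, had 293, 244, 338, 229 and 260 CPM in formoterol livers, against 358, 370, 383 and 307 CPM in vehicle livers (log2 fold change −0.38, SE 0.15, adjusted p = 0.279 by edgeR). For Gclc only M48 reached the vehicle range. Ugdh, which makes UDP-glucuronic acid, averaged 228 ± 43.1 CPM in formoterol and 227 ± 30.5 CPM in vehicle livers.

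Of 28 other tested genes of conjugation and related steps, 8 were higher and 4 lower with unadjusted p under 0.05, against 9.03% higher and 5.53% lower of all genes, with a median log2 fold change of 0.27. Mgst1, a microsomal glutathione transferase that the naming rule leaves out, averaged 5568 ± 1795 CPM in formoterol and 3856 ± 293 CPM in vehicle livers, with a log2 fold change of 0.53 (SE 0.22, adjusted p = 0.290 by edgeR). Per kilobase Mgst1 was above every GST member, at 2766 CPM per kb in formoterol and 1916 CPM per kb in vehicle livers. Inmt, a methyltransferase acting on indoleamines and thioethers, had 726, 961, 941, 517 and 537 CPM in formoterol livers, against 204, 347, 252 and 465 CPM in vehicle livers. It was the gene of this list without overlap in the higher direction (log2 fold change 1.22, SE 0.26, adjusted p = 0.158 by edgeR and 0.00143 by DESeq2). Nat8f1 and Nat8f5, of the N-acetyltransferase 8 family, had log2 fold changes of 1.11 (SE 0.29) and 0.99 (SE 0.29), and DESeq2 called both (adjusted p = 0.0123 and 0.0386). Ephx1, the microsomal epoxide hydrolase, had 232, 237, 295, 315 and 251 CPM in formoterol livers, against 346, 393, 375 and 373 CPM in vehicle livers, without overlap (log2 fold change −0.48, SE 0.14, adjusted p = 0.185 by edgeR and 0.0332 by DESeq2). Arsa, a lysosomal sulfatase, and Gusb, the lysosomal glucuronidase that removes glucuronic acid, had log2 fold changes of −0.62 (SE 0.22) and −0.63 (SE 0.23). For both, M49 was the highest formoterol library, and it lay inside the vehicle range for Gusb and above it for Arsa.

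Of 19 tested regulators of these enzymes, 1 was higher and 1 lower with unadjusted p under 0.05, against 9.03% higher and 5.53% lower of all genes. Bcl6, a repressor that shapes the male pattern of liver genes in mice, had 14.2, 14.2, 15.8, 15.7 and 43.5 CPM in formoterol livers, against 11.6, 8.81, 13.8 and 6.44 CPM in vehicle livers, without overlap and with M50 far above the rest (log2 fold change 1.03, SE 0.37, adjusted p = 0.236 by edgeR). Nfe2l2, which encodes the antioxidant regulator NRF2, had 35.6, 38.6, 63.7, 63.1 and 67.4 CPM in formoterol livers, against 72.3, 95.7, 54.3 and 69.6 CPM in vehicle livers (log2 fold change −0.44, SE 0.22, adjusted p = 0.369 by edgeR). Arnt, the partner of the aryl hydrocarbon receptor, had a log2 fold change of −0.27 (SE 0.16), Nr1h4, the bile acid receptor FXR, 0.25 (SE 0.15), and Foxa1 0.26 (SE 0.26).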

How the data were processed

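Whole-number read counts per gene for 9 libraries, 5 formoterol and 4 vehicle, were deposited by the authors. Per the submitters' processing notes, HISAT2 2.0.5, DESeq2 and the build mm39 were used; the sources used here do not give the counting program, strand setting or annotation release. Libraries held 12336665 to 20339665 counts, and scarce genes are correspondingly imprecise. Genes passing filterByExpr (minimum count 10, minimum total 15) were tested with edgeR 4.0.16 in R 4.3.3 (TMM, robust quasi-likelihood test, Benjamini-Hochberg over all genes tested). DESeq2 1.42.0, limma 3.58.1, other scalings, filters, a gene-length correction and leaving out each library were alternatives. The scripts were tested on simulated data. Members given by library were, per family, the 5 with the highest mean CPM and up to 4 with the smallest edgeR p in each direction, with Ugt1a1, Sult2a1, Sult1e1, Gstp1, Gsta1 and Gstm1 where tested; of each pathway list, up to 3 in each direction. The members and lists were chosen with earlier results of these data known. Nothing beyond the design text shows that the libraries are separate mice, so p-values measure the spread between these samples. Promoter sequences are RefSeq's on GRCm38.p6, and gene coordinates are the table's. Some genes of the marker and regulator lists are not reported here.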

Additional observations from a re-analysis of the deposited data

Results flagged for a closer look

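In 5 of the 60 groups of values examined, which were the formoterol and vehicle groups of 27 enzymes and of the 3 family shares of counts, the highest or lowest library stood far from the others by Dixon's criterion. Chance gives about 1 in 20 such groups. For Gstm1, formoterol library M49 had 1622 CPM, against 881 to 1055 CPM in the other formoterol libraries. For Gstm3, M49 had 69.7 CPM, against 7.00 to 20.6 CPM in the others. For Gsta1, M49 had 17.6 CPM, against 1.49 to 5.90 CPM in the others. For Sult1b1, vehicle library M58 had 30.9 CPM, against 22.9 to 24.3 CPM in the other vehicle libraries. For Sult1c2, M58 had 8.39 CPM, against 9.72 to 9.87 CPM in the others.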

How the results depend on the processing

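No paired analysis was possible because the columns carry animal codes and no replicate number from the labels. Genes called at an adjusted p under 0.05 were 0 with edgeR on all 9 libraries. Higher in formoterol livers were 191 genes with no filter on low counts, 221 with DESeq2, 792 with limma-voom and sample quality weights and 0 to 442 with 1 library left out; lower were 72, 93, 582 and 0 to 260 under the same settings. Members called higher were 1 with DESeq2, 5 with quality weights and 0 to 3 with 1 library left out. Members called lower were 3 with no filter, 2 with DESeq2, 7 with quality weights and 0 to 5 with 1 library left out. All of the members called in the fits with 1 library left out came from the fit without M49, to which the quality weights gave 0.369 against 0.596 to 3.51 for the other formoterol libraries. Members higher at an unadjusted p under 0.05 numbered 6 with edgeR on all libraries, 2 with library totals, 3 after the gene-length correction, 11 with quality weights and 2 to 10 with 1 library left out, of which 2 without M48 or M56, 3 without M47 or M59 and 10 without M49. Members lower at that threshold numbered 6 to 9 with 1 library left out. Members without overlap numbered 0 to 6 higher (6 without M49, and 1 each without M58 or M60) and 4 to 6 lower. Family medians of the log2 fold change with 1 library left out ranged from 0.04 to 0.33 for UGTs, 0.29 to 0.53 for SULTs and −0.0019 to 0.21 for GSTs, and the SULT median was −0.0101 with no filter on low counts, where SULTs with few counts enter it, against 0.44 over the 8 SULTs tested otherwise. The log2 fold change of Sult1e1 ranged from −0.71 to 0.0569 with 1 library left out, and was 0.0489 without M58. The cause of these changes was not tested. Of 243 values of named members with 1 library left out, 233 kept their direction and side of the threshold. Another 8 passed the threshold, all without M49, and 2 changed sign. Of 243 under other settings, 225 kept both and 18 passed the threshold. The edgeR fit on all libraries called 0 members, so keeping the side of the threshold means not being called. Genes under about 1 CPM rest on few counts, and their differences were not resolved at this depth.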
